A study of Mus musculus with 8 samples.

Results

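Nicotinamide adenine dinucleotide (NAD) carries electrons in metabolism and is also the substrate of sirtuins, poly(ADP-ribose) polymerases and NAD glycohydrolases. Liver makes it from tryptophan by the de novo (kynurenine) route, from nicotinic acid by the Preiss-Handler route, and from nicotinamide or nicotinamide riboside by salvage. Nicotinamide that is not recycled can be methylated by nicotinamide N-methyltransferase (NNMT), which spends S-adenosylmethionine and commits the nicotinamide to excretion. The 10 genes described here were chosen by name as enzymes of these routes, with earlier results of these data known. All 10 were found among the 25010 genes of the deposited table. They are Tdo2, Kmo, Haao and Qprt of the de novo route, Acmsd, which diverts that route, Naprt, Nampt, Nmrk1, Nmnat1 and Nnmt.

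RNA-Seq measured them in the left liver lobe of 2 WT and 2 LXRDKO samples. The labels do not say that the samples of a genotype came from separate mice, so the spread between them, on which every P value rests, may be technical. The mice were on a C57BL/6 background, 8 wk old and fasted for 4 to 6 h. In LXRDKO mice LXRα (Nr1h3) and LXRβ (Nr1h2) are deleted in every tissue, not in hepatocytes alone, and the labels do not state whether WT mice were littermates. Values are normalized counts, the reads counted on a gene divided by the size factor that the authors gave each library. Between 55772659 and 72842744 reads were counted per liver, and the member with the fewest reads, Nmnat1, still had 856 in its lowest liver. The deleted receptors checked the labels: Nr1h3 had 5785 and 5322 normalized counts in WT livers against 1712 and 1826 in LXRDKO livers (log2 fold change −1.65, adjusted P = 0.0147, limma). Whole liver RNA was measured, so that fewer cells of a type and less RNA per cell cannot be told apart. The summed counts of 5 hepatocyte markers (Alb, Apoa1, Ttr, Cps1 and Serpina1c) ranged from 6286180 to 7344510 in WT and from 6037500 to 6609180 in LXRDKO livers. Alb made most of these sums. Cps1 was higher in both LXRDKO livers, Ttr was lower in both, and Alb, Apoa1 and Serpina1c overlapped between genotypes.

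Of the 10 genes, Nnmt, Acmsd and Tdo2 had higher counts in LXRDKO than in WT livers without overlap, by 2.13-fold, 1.83-fold and 1.65-fold. Nmnat1, Naprt, Qprt and Haao were lower in both, by small amounts, at 0.840, 0.839, 0.808 and 0.830 of the WT level. Nampt, Kmo and Nmrk1 overlapped between the genotypes. Across the 15578 genes tested, 21.7% had both LXRDKO livers above both WT livers and 23.0% had both below, the background against which the 3 and 4 genes out of 10 stand.

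Genotypes were compared as log2(normalized count + 1) with limma, which pools the spread across all genes, and the Benjamini-Hochberg adjustment ran over all genes tested. No member passed an adjusted P value of 0.05 with limma, where 0.321% of all genes did. At an unadjusted limma P value under 0.05 there were 6 members, Nnmt, Acmsd, Tdo2, Qprt, Haao and Naprt, against 13.3% of all genes. DESeq2, the tool the authors used, called Nnmt, Acmsd and Tdo2 up-regulated on the recovered reads. These are 3 of 10, where it called 1.56% of all genes up-regulated. It called none of the 10 down-regulated, where it called 2.03% of all genes. As the members were chosen with earlier results of these data known, these shares are a description and not a test. The quasi-likelihood test of edgeR called none of the 10, where it called 0.311% of all genes. The median log2 fold change of the 10 was −0.03, and that of all genes tested was −0.0046. The median absolute log2 fold change was 0.26 for the members and 0.17 for all genes. For 1 gene alone, 2 livers against 2 allow no exact two-sided permutation P value below 0.333, and the smaller P values here come from variance shared between genes.

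**Figure D1:**
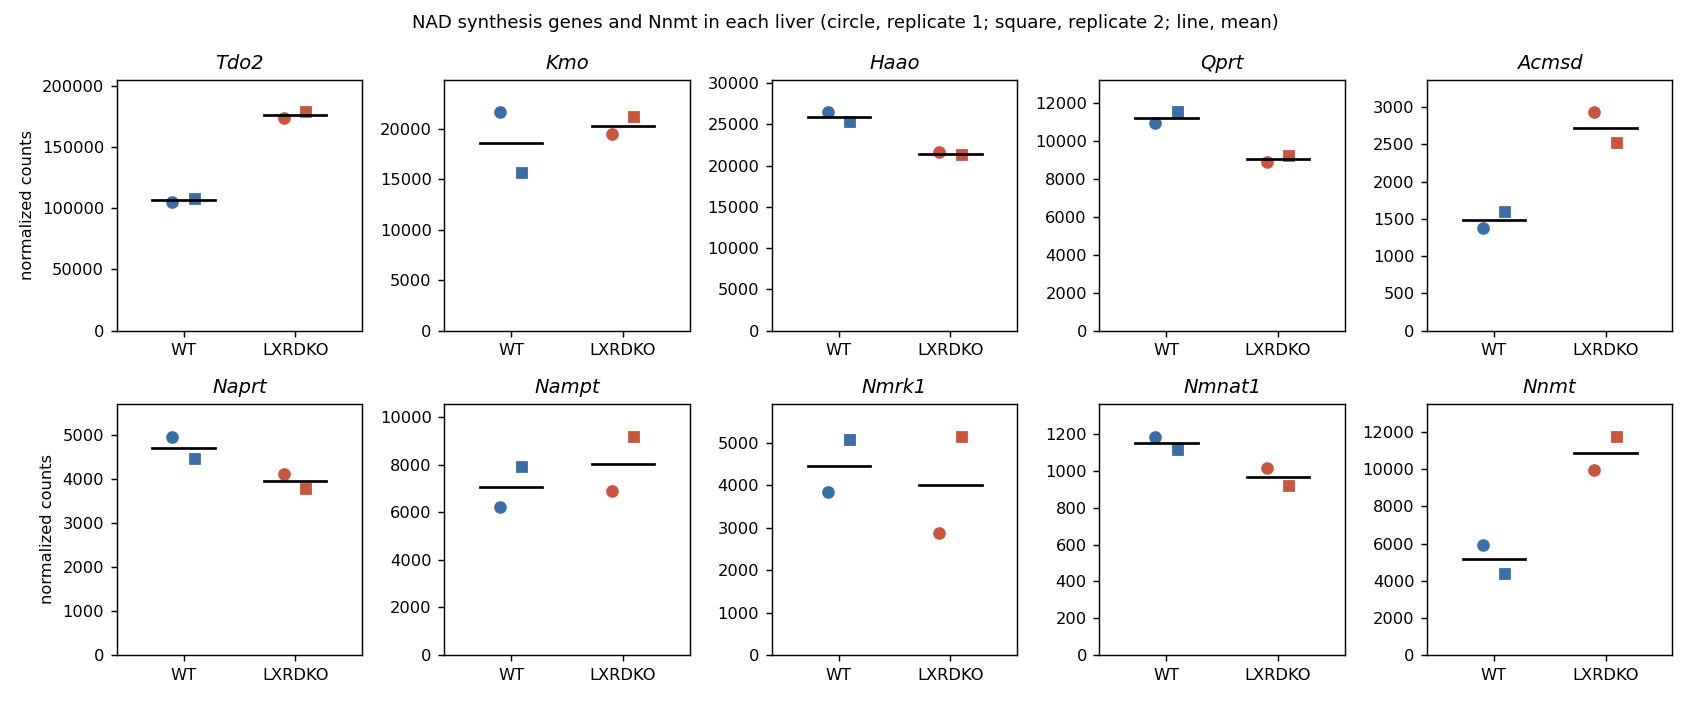
Normalized counts (axis from 0) of each gene in the 2 WT livers (blue) and the 2 LXRDKO livers (red), with the mean of each genotype as a line. Tdo2, Acmsd and Nnmt lie higher in both LXRDKO livers, Haao, Qprt, Naprt and Nmnat1 slightly lower, and Kmo, Nampt and Nmrk1 overlap.

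The promoters of 8 of the 10 genes were taken from RefSeq on GRCm38.p6, as windows from 250 bases before to 50 bases after the start site, and Nnmt and Naprt had no entry. They were searched on both strands for AGGTCA, the half-site that nuclear receptors bind, for 2 half-sites in direct repeat with 4 bases between (DR4, the canonical LXR element) or 1 base between (DR1, which PPARα and HNF4α bind), and for CCAAT, the NF-Y motif. A half-site occurred in the windows of 4 of the 8 genes, where 18.1% of all 27025 genes with a window hold one. No exact DR4 or DR1 occurred in these windows, and 0.0148% and 0.0481% of all genes with a window hold one. CCAAT occurred in 3 of the 8, where 41.1% of all genes with a window hold it. The 4 genes with a half-site are Acmsd and Tdo2, which were higher in LXRDKO livers without overlap, and Nampt and Haao, which were not. The half-sites of Tdo2, Nampt and Haao are shown as examples of both kinds, and that of Acmsd is not shown. Each stretch reads 5′ to 3′ on the strand of the gene, and the capitals mark AGGTCA or its reverse complement.
Tdo2, chr3:81975717-81975746, minus strand: tgataccattccTGACCTagcaaacctgtg
Nampt, chr12:32820172-32820201, plus strand: aggcaggcgcccAGGTCAcgcgctggggtg
Haao, chr17:83846831-83846860, minus strand: tgctcagctcttTGACCTctggtaacctaa
Counted from the RefSeq start site, the matches begin at −6, −151 and −58, in this order. The RefSeq start sites of Tdo2, Nampt and Haao lie inside the GENCODE M21 genes, whose coordinates are given below. The stretches shown for them therefore also lie inside those genes. Tdo2 also held CCAAT on the reverse strand, shown in capitals, from −78 to −74.
Tdo2, chr3:81975790-81975818, minus strand: agctgggtgctgATTGGctgtgtctggca
A match describes the letters of a window and was not tested for binding.

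To compare levels between genes, counts were divided by the kilobases of exon of each gene in GENCODE M21. This length joins the exons of all annotated transcripts of a gene, 4681 bases for Haao and 1576 for Nnmt. The RNA present in liver may be shorter, so the order below depends on the length used. In WT livers, Tdo2 had the highest level, with 27131 and 27752 normalized counts per kb, followed by Haao with 5651 and 5406. Nmnat1, whose enzyme joins the adenylyl group in the last step that the routes share, had the lowest level, with 391 and 367. Between neighbours in this order, Qprt overlapped with Kmo, Kmo with Nnmt, and Nampt with Nmrk1 in WT livers, and the other neighbours did not overlap. Nnmt ranked 5 of 10 in WT livers, with 3763 and 2771 normalized counts per kb. It ranked 2 of 10 in LXRDKO livers, with 6323 and 7460, above Haao, which had 4617 and 4554. Without division by length, Haao lay above Nnmt in LXRDKO livers, with 21613 and 21315 normalized counts against 9966 and 11756. Naprt, Nampt, Nmrk1, Acmsd and Nmnat1 kept their places 6 to 10 in the order of the means.

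**Figure D2:**
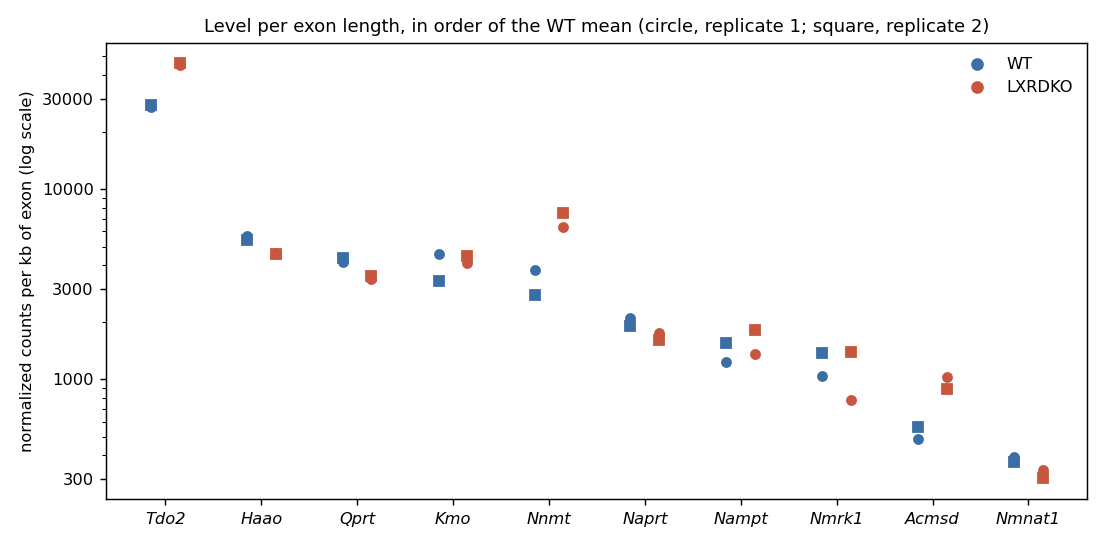
Normalized counts per kb of exon (log axis) of each gene in WT (blue) and LXRDKO (red) livers, ordered by the WT mean. Tdo2 stands above the other genes in all 4 livers, and Nnmt lies between 2771 and 3763 in WT and between 6323 and 7460 in LXRDKO.

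The de novo route starts with Tdo2, tryptophan dioxygenase, a hepatocyte enzyme that opens the tryptophan ring and controls entry to the kynurenine pathway. Tdo2 lies on chromosome 3 from 81957090 to 81976202 (GRCm38, as all gene coordinates here). It had 105294 and 107706 normalized counts in WT livers against 174105 and 178312 in LXRDKO livers. The replicates of each genotype lay close together and far from the other genotype. Its log2 fold change was 0.73 (standard error 0.15, 95% confidence interval 0.35 to 1.10), and DESeq2 called it (adjusted P = 3.92e-07) where limma did not (adjusted P = 0.151). Dropping any 1 liver left this value between 0.71 and 0.74.

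Kmo, kynurenine monooxygenase, acts downstream of it, and Haao, hydroxyanthranilate dioxygenase, makes the unstable product from which quinolinate forms. Kmo (chromosome 1, 175620381 to 175662116) had 21593 and 15628 normalized counts in WT livers against 19447 and 21109 in LXRDKO livers. The LXRDKO values lay within the range of the WT values, and the log2 fold change was 0.14 (95% confidence interval −0.28 to 0.56). Haao (chromosome 17, 83831156 to 83847963) had 26451 and 25303 in WT livers against 21613 and 21315 in LXRDKO livers. Both LXRDKO livers were lower, by a log2 fold change of −0.27 (SE 0.10, limma adjusted P = 0.328, DESeq2 adjusted P = 0.323). Fh1, which encodes fumarate hydratase, overlaps Kmo on the opposite strand, but their exons share no base.

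Qprt and Acmsd stand at the branch of the route. QPRT turns quinolinate into the nicotinic acid mononucleotide that leads to NAD, whereas ACMSD removes the precursor of quinolinate toward oxidation. Qprt (chromosome 7, 127107114 to 127122226) had 10915 and 11497 normalized counts in WT livers against 8893 and 9201 in LXRDKO livers. The genotypes did not overlap, and LXRDKO was lower, by a log2 fold change of −0.31 (SE 0.09, limma adjusted P = 0.249, DESeq2 adjusted P = 0.221). Acmsd (chromosome 1, 127729413 to 127767978) had 1376 and 1597 in WT livers against 2927 and 2514 in LXRDKO livers. Its lowest LXRDKO value was well above its highest WT value, and the log2 fold change was 0.87 (standard error 0.13, 95% confidence interval 0.56 to 1.19). Limma gave Acmsd an adjusted P value of 0.0893 and DESeq2 one of 2.84e-05. Without LXRDKO replicate 1, the liver with the higher value, DESeq2 gave 0.0811, and without WT replicate 2 limma gave 0.0437. An antisense gene, 2900009J06Rik, shares 94 exon bases with Acmsd, and it had at most 27.5 normalized counts in any liver. Acmsd is also abundant in kidney. The 2 kidney tubule markers Umod and Slc34a1 summed to 1.14 and 0 normalized counts in the WT samples and to 2.85 and 2.14 in the LXRDKO samples, with Umod at 0 in 3 of the 4, and their part in the values of Acmsd was not tested.

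**Figure D3:**
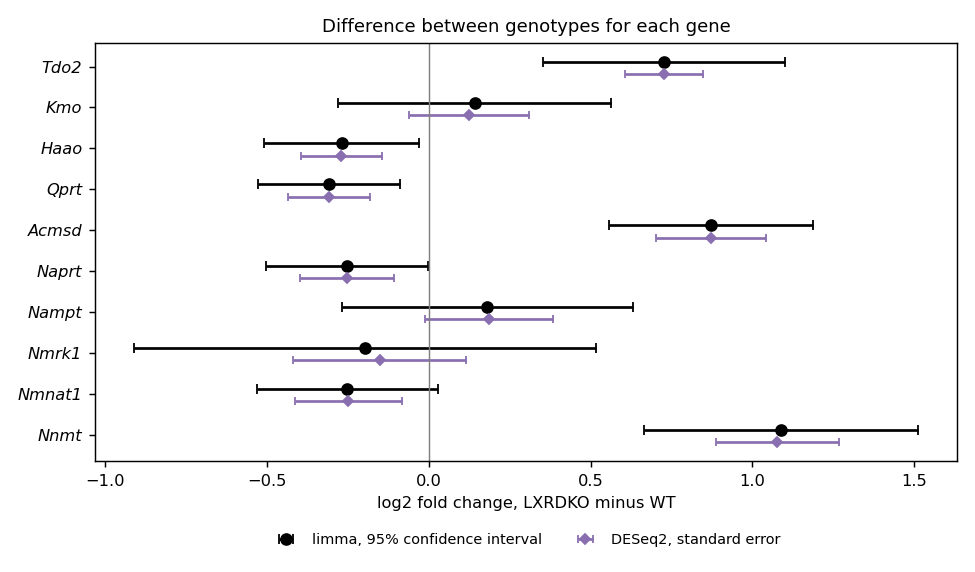
Log2 fold change (LXRDKO minus WT) of each gene from limma with its 95% confidence interval (black circles) and from DESeq2 with its standard error (purple diamonds). The intervals of Tdo2, Acmsd and Nnmt lie wholly above 0, those of Haao, Qprt and Naprt just below it, and the others cross it, all before adjustment over the genes tested.

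The opposite directions of Qprt and Acmsd were also read as a ratio within each liver, which does not depend on the size factor. The count ratio of Qprt to Acmsd was 7.93 and 7.20 in WT livers against 3.04 and 3.66 in LXRDKO livers. On the log2 scale the ratio was 2.92 ± 0.10 (SD, n = 2) in WT and 1.74 ± 0.19 (SD, n = 2) in LXRDKO, a difference of −1.18. The genotypes did not overlap, and the exact permutation test gave a P value of 0.333, the smallest that 2 livers against 2 allow. The same P value, also after adjustment over the 3 ratios computed, holds for the 2 other ratios given here.

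Other enzymes of the kynurenine pathway were read from a list of 7 genes, of which 6 were tested and 0 were called by limma, edgeR or DESeq2. Kynu, the kynureninase that feeds HAAO, had 9904 and 8387 normalized counts in WT livers against 12438 and 10861 in LXRDKO livers (log2 fold change 0.35, adjusted P = 0.327, limma). Aadat, an aminotransferase that takes kynurenine to kynurenic acid, had 9048 and 6728 in WT livers against 10073 and 10536 in LXRDKO livers (log2 fold change 0.40, adjusted P = 0.355, limma). Ido2, a dioxygenase with the same reaction as TDO2, had 8729 and 6518 in WT livers against 5391 and 5966 in LXRDKO livers (log2 fold change −0.41, adjusted P = 0.352, limma). These 3 had unadjusted limma P values under 0.05, as 13.3% of all genes tested did. None overlapped between genotypes. Of all genes tested, 21.7% had both LXRDKO livers above both WT livers and 23.0% both below. Ido1 had at most 5.09 normalized counts in any liver and was not tested.

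Tdo2 is known to be induced by glucocorticoids, so a list of 6 glucocorticoid-induced genes was read beside it. Of these, 5 were higher in LXRDKO livers. Limma called Fkbp5, and DESeq2 called Fkbp5, Tat and Zbtb16 up-regulated. Over all genes, limma called 0.321% in either direction and DESeq2 1.56% upward. The list was chosen with earlier results of these data known, so these shares are a description and not a test. Fkbp5, a chaperone of steroid receptors, had 6870 and 6116 normalized counts in WT livers against 19131 and 16133 in LXRDKO livers (log2 fold change 1.44, adjusted P = 0.0257, limma). Zbtb16, a transcription factor gene, had 443 and 315 in WT livers against 2014 and 4353 in LXRDKO livers (log2 fold change 2.98, limma adjusted P = 0.0615, DESeq2 adjusted P = 1.63e-05). Tat, tyrosine aminotransferase, had a DESeq2 adjusted P value of 0.00675 and a log2 fold change of 0.65. Tsc22d3, Sgk1 and Per1 were called by no test (log2 fold changes 0.33, −0.13 and 0.23), and the first 2 overlapped between genotypes. The part of glucocorticoid signalling in the values of Tdo2 was not tested. Nor was that of the cell types whose summed markers were higher in LXRDKO livers without overlap. These were the 4 stellate cell markers (4908 and 5023 against 6409 and 7129), the 2 cholangiocyte markers (144 and 171 against 300 and 371) and the 4 monocyte and neutrophil markers (67.3 and 161 against 168 and 204). Of the stellate cell markers, Lrat and Col1a1 overlapped between genotypes. Ccr2 made most of the monocyte and neutrophil sum (47.9 and 132 against 147 and 178). Ly6c2 was lower in both LXRDKO livers, and S100a8 and S100a9 overlapped.

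Acmsd is known to be activated by HNF4α and lowered by ligands of PPARα, and both receptors were on a list of regulators of these genes. Hnf4a had 44148 and 38999 normalized counts in WT livers against 70769 and 56007 in LXRDKO livers (log2 fold change 0.60, limma adjusted P = 0.224, DESeq2 adjusted P = 0.0115). Ppara had 15122 and 12695 in WT livers against 8264 and 10337 in LXRDKO livers (log2 fold change −0.58, limma adjusted P = 0.214, DESeq2 adjusted P = 0.0282). Ppargc1a and Stat3, also on that list, had log2 fold changes of 0.39 and −0.18 and were called by no test. The part of these regulators in the values of Acmsd was not tested.

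The Preiss-Handler enzyme NAPRT joins nicotinic acid to phosphoribosyl pyrophosphate. Naprt (chromosome 15, 75890956 to 75894481) had 4953 and 4450 normalized counts in WT livers against 4112 and 3777 in LXRDKO livers. Both LXRDKO livers were lower, by a log2 fold change of −0.25 (SE 0.10, adjusted P = 0.373, limma). Naprt shares 277 exon bases with Eef1d, a translation elongation factor gene on the same strand that had up to 3015 normalized counts, so reads there could be counted for either gene. Nmnat1, the nuclear adenylyltransferase that completes NAD, lies on chromosome 4 from 149467572 to 149485202. It had 1186 and 1114 in WT livers against 1017 and 918 in LXRDKO livers. The difference was again small, with a log2 fold change of −0.25 (SE 0.11, adjusted P = 0.414, limma). Haao, Qprt, Naprt and Nmnat1 had log2 fold changes from −0.31 to −0.25 and were called by no test, where the median absolute value of all genes was 0.17. With counts scaled by library totals instead, these values ranged from −0.25 to −0.20.

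Salvage begins with Nampt, which encodes the rate-limiting enzyme that recycles nicotinamide, or with Nmrk1, which encodes a nicotinamide riboside kinase. Nampt (chromosome 12, 32819545 to 32853349) had 6210 and 7890 normalized counts in WT livers against 6871 and 9169 in LXRDKO livers. The genotypes overlapped, and the log2 fold change was 0.18 (95% confidence interval −0.27 to 0.63). Nmrk1 (chromosome 19, 18631950 to 18652428) had 3850 and 5064 in WT livers against 2883 and 5147 in LXRDKO livers. It varied most between replicates, by 0.84 on the log2 scale between the LXRDKO livers, and its log2 fold change of −0.20 had a 95% confidence interval from −0.91 to 0.52. A change of Nmrk1 of up to 1.43-fold upward or to 0.532 of the WT level lay within that interval.

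Nampt is known to follow the circadian clock, so clock genes, which depend on the hour of killing, were read beside it. Of 11 clock genes, 10 were tested and 0 were called by limma, edgeR or DESeq2, and 4 had an unadjusted limma P value under 0.05, where 13.3% of all genes tested did. Arntl, the activator that drives Nampt with CLOCK, had 112 and 81.5 normalized counts in WT livers against 134 and 204 in LXRDKO livers. Nr1d1 and Dbp, output genes that peak in the light phase, had log2 fold changes of −0.64 and −0.58, and LXRDKO replicate 2 had the lowest value of both. Nr1d1 had 6092 and 7233 in WT livers against 5385 and 3377 in LXRDKO livers. The hour of killing is not in the labels, and its part in these values was not tested.

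Of the list of salvage and Preiss-Handler genes, 5 were tested and 0 were called by limma, edgeR or DESeq2. Nmnat3, the mitochondrial adenylyltransferase, had 674 and 605 normalized counts in WT livers against 442 and 497 in LXRDKO livers (log2 fold change −0.44, adjusted P = 0.287, limma). Nmnat2, which is mostly neuronal, had 46.8 and 50.9 in WT livers against 19.9 and 31.1 in LXRDKO livers (log2 fold change −0.94, adjusted P = 0.352, limma). Pnp, a nucleoside phosphorylase that frees nicotinamide from its riboside, had a log2 fold change of 0.31 (adjusted P = 0.436, limma). Reads of Pnp may be shared with a near-identical paralog. Nmrk2 was not analysed here.

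Nnmt had the largest log2 fold change of the 10 genes. It lies on chromosome 9 from 48591877 to 48605153 and had 5930 and 4367 normalized counts in WT livers against 9966 and 11756 in LXRDKO livers. Both LXRDKO livers lay well above both WT livers, although WT replicate 2 was below replicate 1 by a log2 difference of −0.44. The log2 fold change was 1.09 (standard error 0.17, 95% confidence interval 0.67 to 1.51). The adjusted P value was 0.0988 from limma, 0.109 from edgeR and 2.72e-06 from DESeq2. Counted from the most positive log2 fold change, Nnmt ranked 420 of the 15578 genes tested, and 4.53% of genes had a larger absolute log2 fold change. Leaving out WT replicate 1 gave a log2 fold change of 1.31 and an adjusted limma P value of 0.0102, and without WT replicate 2 it was 0.87. DESeq2 called Nnmt with each liver left out in turn. Nnmt is also abundant in adipose tissue. The summed adipocyte markers, 2 of 3 on the list (Adipoq and Plin1), were 0 and 2.55 normalized counts in the WT samples and 0 and 1.07 in the LXRDKO samples, and Adipoq was at 0 in 3 of the 4.

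Nampt and Nnmt compete for nicotinamide, and the count ratio of Nampt to Nnmt was 1.05 and 1.81 in WT livers against 0.690 and 0.780 in LXRDKO livers. On the log2 scale this ratio was 0.46 ± 0.56 (SD, n = 2) in WT and −0.45 ± 0.13 (SD, n = 2) in LXRDKO, a difference of −0.91. The WT livers differed from each other nearly as much as the genotypes did, although no LXRDKO liver reached a WT liver. Leaving out WT replicate 2 gave a difference of −0.51, and leaving out replicate 1 of WT gave −1.30. The count ratio of Tdo2 to Nampt, the entries of the de novo and the salvage routes, was 17.0 and 13.6 in WT livers against 25.3 and 19.4 in LXRDKO livers, a log2 difference of 0.55 that was 0.35 without LXRDKO replicate 1. Since these ratios are not divided by gene length, their change between livers can be read but not their size.

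**Figure D4:**
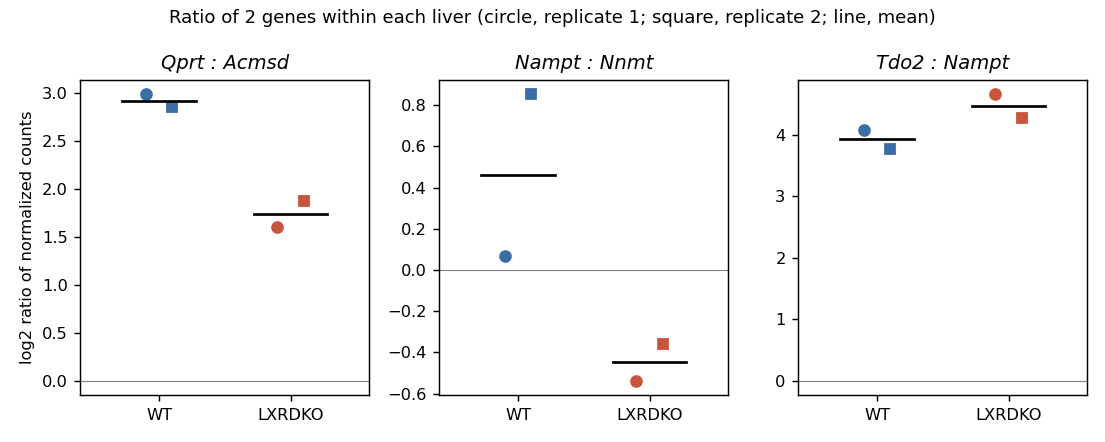
Log2 ratio of the normalized counts of 2 genes within each WT (blue) and LXRDKO (red) liver, with the mean as a line. The ratio of Qprt to Acmsd has means of 2.92 in WT and 1.74 in LXRDKO, that of Nampt to Nnmt has means of 0.46 and −0.45, and that of Tdo2 to Nampt is higher in LXRDKO, with no overlap in any of the 3. Each ratio holds Acmsd, Nnmt or Tdo2, which alone did not overlap between genotypes. With 2 livers against 2, no overlap has an exact permutation P value of 0.333.

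NNMT uses the methyl donor S-adenosylmethionine, which MAT1A makes in liver. Mat1a had 168178 and 195529 normalized counts in WT livers against 261210 and 345351 in LXRDKO livers (log2 fold change 0.73, limma adjusted P = 0.284, DESeq2 adjusted P = 0.00244). Ahcy, which clears the S-adenosylhomocysteine left by methyltransferases, had a log2 fold change of 0.28 (adjusted P = 0.345, limma). Gnmt and Pemt, 2 other hepatic users of the methyl donor, had log2 fold changes of 0.01 and −0.11 and were called by no test. The methylated nicotinamide is oxidized by aldehyde oxidases. Aox1 had 10295 and 10910 in WT livers against 7702 and 8937 in LXRDKO livers (log2 fold change −0.35, adjusted P = 0.276, limma), and Aox3 overlapped between genotypes.

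The 5 tested genes whose values followed Nnmt most closely over the 4 livers, by the distance between mean-centred log2 values, were Serpina3n, Dcaf4, Ablim3, Pkia and Baiap2, with distances from 0.0838 to 0.167. Serpina3n, which encodes a secreted protease inhibitor of the acute phase, had 23193 and 18150 normalized counts in WT livers against 38780 and 45430 in LXRDKO livers. No other member was among them. Tdo2 lay at a distance of 0.514, with 234 genes closer to Nnmt, and Acmsd at 0.606, with 412 closer, where the median over all genes tested was 1.20. Over only 4 livers this is a description of shape, and many genes share it.

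NAD is phosphorylated to NADP, moved into mitochondria and consumed by signalling enzymes, and the genes of these steps completed a list of 38 other genes of NAD metabolism. Of these, 36 were tested, 13 were higher and 23 lower, and the median log2 fold change was −0.04. Limma and edgeR called 0 of the 36, and 10 had an unadjusted limma P value under 0.05, where 13.3% of all genes tested did. DESeq2 called Slc25a51 up-regulated and Cd38 down-regulated, where it called 1.56% and 2.03% of all genes. Slc25a51, the carrier that brings NAD into mitochondria, had 5369 and 5329 normalized counts in WT livers against 8056 and 9058 in LXRDKO livers. The replicates lay close together and the genotypes apart, with a log2 fold change of 0.68 (SE 0.10, limma adjusted P = 0.0881, DESeq2 adjusted P = 9.43e-05). With DESeq2 the adjusted P value of Slc25a51 was 0.158 without LXRDKO replicate 2.

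Cd38, an NAD glycohydrolase found on immune and endothelial cells, had 659 and 564 normalized counts in WT livers against 333 and 285 in LXRDKO livers. Neither LXRDKO liver reached the lower WT liver, with a log2 fold change of −0.98 (SE 0.16, limma adjusted P = 0.108, DESeq2 adjusted P = 0.000436). With DESeq2 its adjusted P value was 0.167 without WT replicate 1 and 0.198 without LXRDKO replicate 2. The summed level of 6 Kupffer cell and macrophage markers (Clec4f, Vsig4, Adgre1, Cd68, C1qa and Csf1r) was 9103 and 9995 in WT livers against 7410 and 4403 in LXRDKO livers, with 4 of the 6 lower. Clec4f made the largest part of the WT sums. Vsig4 and Adgre1 were, like Clec4f, lower in both LXRDKO livers. Cd68, C1qa and Csf1r overlapped between genotypes, with log2 fold changes of 0.35, −0.19 and 0.05. Clec4f, which marks resident Kupffer cells, fell from 3309 and 3369 to 575 and 333 normalized counts (adjusted P = 0.0267, limma). The 3 endothelial markers had lower means in LXRDKO livers, with sums of 6797 and 5933 in WT livers against 4927 and 3635 in LXRDKO livers. Kdr and Pecam1 were lower in both LXRDKO livers, and Stab2 overlapped between genotypes. Limma called Kdr alone of these, where it called 0.321% of all genes. The summed level of the 2 lymphocyte markers Cd3e and Cd79a was 71.9 and 104 in WT livers against 42.7 and 26.8 in LXRDKO livers. The part of these cells in the values of Cd38 was not tested.

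**Figure D5:**
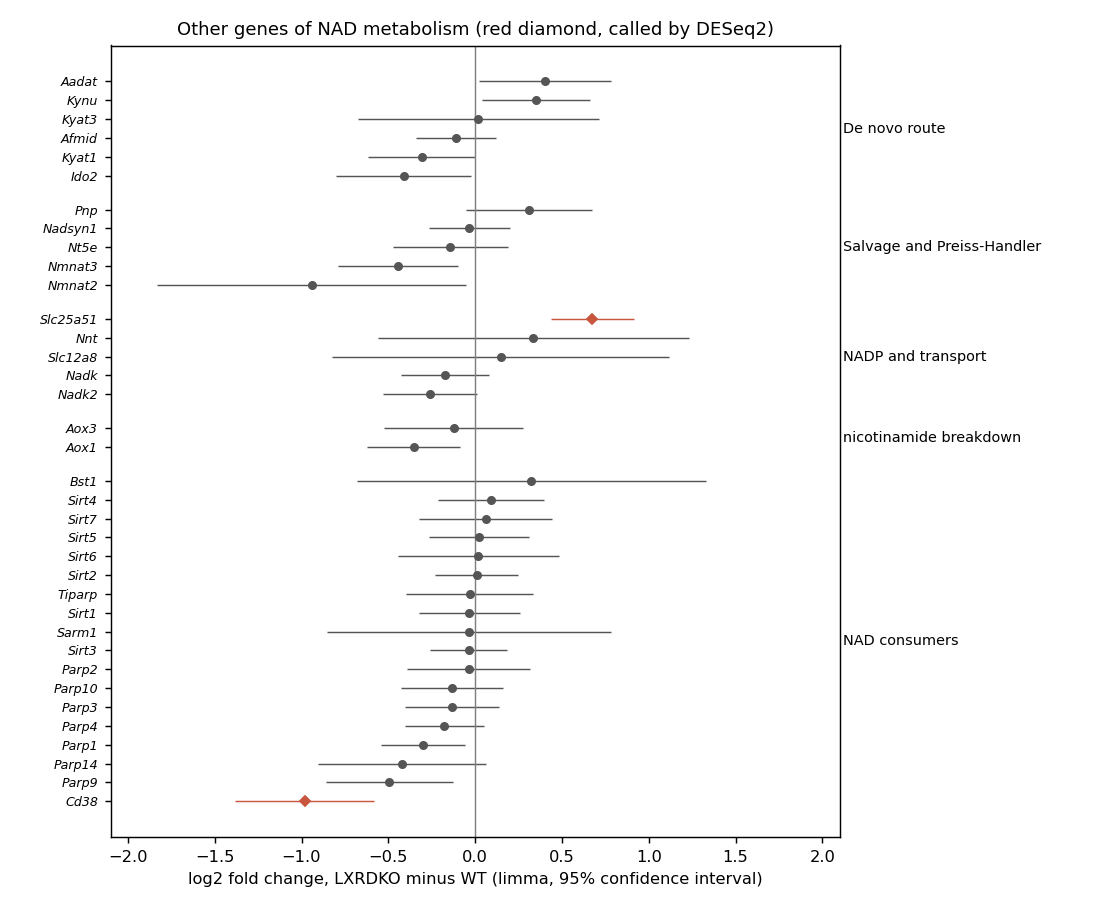
Log2 fold change (LXRDKO minus WT) with the 95% confidence interval from limma for the 36 other tested genes of NAD metabolism, grouped by step, with those that DESeq2 called as red diamonds. Slc25a51 (0.68) and Cd38 (−0.98) are the genes that DESeq2 called. The sirtuin genes lie near 0, and the genes named Parp lie below it, from −0.50 (Parp9) to −0.04 (Parp2), as do 7929 of all 15578 genes tested. Of the genes named Parp, only Parp1 and Parp9 have intervals that exclude 0, before adjustment. Parp2, Parp3 and Parp10 overlapped between genotypes.

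The 7 sirtuin genes, NAD-dependent deacylases, had log2 fold changes from −0.04 to 0.09, and every one overlapped between the genotypes. Among the poly(ADP-ribose) polymerase genes, Parp1, the main DNA damage sensor, had 3060 and 2754 normalized counts in WT livers against 2325 and 2393 in LXRDKO livers (log2 fold change −0.30, adjusted P = 0.298, limma). Parp9 and Parp14, both interferon-induced, differed by −0.50 and −0.42 on the log2 scale without overlap, and limma called neither (adjusted P = 0.263 and 0.426). Bst1, a relative of Cd38, had between 19.5 and 35.4 normalized counts and overlapped between genotypes. The NAD kinase genes Nadk and Nadk2 had log2 fold changes of −0.17 and −0.26, with no overlap and no call by any test. For 23.0% of all genes tested, both LXRDKO livers likewise lay below both WT livers. Nnt, the mitochondrial transhydrogenase, had 41.1 and 52.6 in WT livers against 45.6 and 76.1 in LXRDKO livers, low in both genotypes. The C57BL/6J substrain is known for a deletion in Nnt, and the labels do not name the substrain.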

How the data were processed

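RNA-Seq of 4 livers was analysed, and the 4 ATAC-Seq samples were not. Polyadenylated RNA was sequenced as single-end 50 bp reads, which the authors aligned to mm10 with STAR 2.6.0c, per the submitters' processing notes. The deposited values are a signal per gene, read counts that the authors divided by DESeq2 size factors. The counting tool and annotation are not given in the sources used here. All values (100%) were whole multiples of 1 read within a tolerance of 0.01 reads, so reads were recovered. Genotypes were compared with limma 3.58.1 (R 4.3.3) on log2(normalized count + 1), with a variance trend, leaving out genes whose mean was under 10 normalized counts. This scale understates changes of low genes. DESeq2 1.42.0 and edgeR 4.0.16 tested those reads as well. Limma, DESeq2 and edgeR were also run on simulated counts, and the outcome is not given here. Members and lists were chosen with earlier results of these data known. The text names all members, of each list the genes called by limma or DESeq2 and up to 3 others with the largest differences, and the 5 genes nearest to Nnmt. Ido1, Parp1, Nmrk2, the sirtuins, Clec4f and Kdr were named beyond this rule, after their values were seen. Replicate numbers do not pair the samples, and the deviations of same-numbered samples correlated at 0.0031. One regulator and one promoter sequence are not reported here.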

Additional observations from a re-analysis of the deposited data

How the results depend on the processing

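The count of all genes called by limma, 50, became 25 over genes averaging 50 normalized counts or more, 1 without the variance trend, 90 with the replicate block, 567 with DESeq2 and 138 at an adjusted P value of 0.10, and ranged from 2 to 265 when each liver was left out. Of the 10 members limma called 0, also with the replicate block. DESeq2 called 3, the threshold of 0.10 gave 2 (Acmsd and Nnmt), and leaving out a liver gave 0 to 1, namely Nnmt without WT replicate 1 and Acmsd without WT replicate 2. Of the other NAD genes limma called 0, DESeq2 2 and the threshold of 0.10 gave 1, Slc25a51. DESeq2 with each liver left out, added after seeing the data, called 2 to 3 members and 0 to 2 other NAD genes. The directions of Nnmt, Tdo2, Acmsd, Qprt, Haao, Naprt and Nmnat1 and of the 3 ratios held under every alternative run. Leaving out a liver turned the direction of 3 members. The log2 fold change of Nampt ranged from −0.027 (without LXRDKO replicate 2) to 0.39, that of Kmo from −0.092 (without WT replicate 2) to 0.37, and that of Nmrk1 from −0.61 to 0.22 (without LXRDKO replicate 1), with 0.00083 without WT replicate 2. The cause of these shifts was not tested, beyond the fewer livers that entered. With a liver left out, the lone liver of that genotype is assumed to vary like the other genotype. Every member had at least 856 reads in each liver, and the number of livers limits the intervals.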
